A study of Homo sapiens with 2 samples.

Results

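The ephrin, semaphorin and plexin guidance genes of SF-539 cells, a human glioblastoma (GBM) cell line, were examined in 1 library with and 1 library without knockdown of FKBP9. They were taken by gene symbol as all protein-coding genes of the deposited table whose name begins with EPHA, EPHB, EFNA, EFNB, SEMA or PLXN followed by a digit or letter, together with NRP1 and NRP2. The rule found 53 of the 58735 genes in the table, namely 14 Eph receptors, 8 ephrins, 20 semaphorins, 9 plexins and 2 neuropilins. SF-539 cells at passages 15 to 18, grown in DMEM with 10% FBS, were infected with pGIPZ-CTRL lentivirus (shControl) or with lentivirus carrying an FKBP9 shRNA (shFKBP9), and stable clones were selected with puromycin in both groups. The methods describe more than 1 shRNA against FKBP9, and which of them the sequenced cells carried, and how many clones each culture held, is not given in the sources used here. RNA was sequenced from 1 library per group, so no difference below has a replicate check and no test between the conditions was possible.

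Eph receptors are receptor tyrosine kinases whose ligands, the ephrins, are bound to the membrane of the neighbouring cell. A-type ephrins are held by a lipid anchor and B-type ephrins span the membrane, and contact can signal into both cells. Semaphorins are secreted or membrane-bound cues that are read by plexins, with neuropilins as co-receptors for most secreted semaphorins. Plexins act on small GTPases and so on adhesion and the actin cytoskeleton. These families steer axons and vessels in development, and in gliomas they are studied for their part in migration, invasion and angiogenesis.

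The shControl library held 18116873 fragments on genes and the shFKBP9 library 17158514. FKBP9 itself had 49.8 FPKM in the shControl library against 4.68 FPKM after knockdown, a log2 ratio of -3.38 (95% counting interval -3.56 to -3.27), in the direction of the labels. FPKM are fragments scaled to gene length and library size. A comparison of levels between genes therefore rests on the gene lengths in the deposited table. How well these lengths match the RNA of these cells was not tested, and the intervals do not cover it. The labels call the cells epithelial glioma cells. Of 7 glial and glioma markers, VIM, CD44 and NES reached 1 FPKM, whereas GFAP, S100B, SOX2 and OLIG2 stayed under it in both libraries. Of 6 epithelial markers, KRT8 alone reached 1 FPKM, CDH1 had at most 0.00943 FPKM, and KRT14 had 0.0242 FPKM in shControl against 0.613 FPKM in shFKBP9. The epithelial markers summed to 1.80 FPKM in shControl against 2.36 FPKM in shFKBP9, and their part in the results below was not tested. The 3 mesenchymal markers COL1A1, COL1A2 and FN1 summed to 1591 and 1687 FPKM. The 4 neuronal markers summed to 6.52 and 6.85 FPKM, and of these SNAP25 alone reached 1 FPKM, with 4.98 and 5.76 FPKM. Endothelial markers summed to at most 0.149 FPKM. The 3 blood markers summed to 0.353 and 0.293 FPKM, all from CD68, while PTPRC and AIF1 had 0 fragments in both libraries.

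Of the 53 guidance genes, 26 reached 1 FPKM in at least 1 library and 27 did not. The highest level in both libraries was that of NRP2, a neuropilin, with 83.5 FPKM in shControl against 66.7 FPKM in shFKBP9. PLXNB2, a plexin that binds semaphorins of class 4, came next with 47.2 and 38.3 FPKM. In shControl the next place was held by SEMA4B at 27.1 FPKM (exact Poisson 95% interval 26.2 to 28.1), above SEMA7A at 22.0 FPKM (20.9 to 23.2) and NRP1 at 20.0 FPKM (19.4 to 20.6). In shFKBP9 SEMA7A took the third place at 32.7 FPKM (31.3 to 34.1), above SEMA4B at 23.0 FPKM (22.2 to 23.9) and NRP1 at 22.9 FPKM (22.2 to 23.5). SEMA4B and SEMA7A thus changed places between the libraries with intervals that did not overlap, while SEMA4B and NRP1 could not be told apart in shFKBP9. These intervals, like all below, cover counting error only. In bulk RNA, fewer cells that express a gene and less of its RNA in each cell cannot be told apart.

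**Figure D1:**
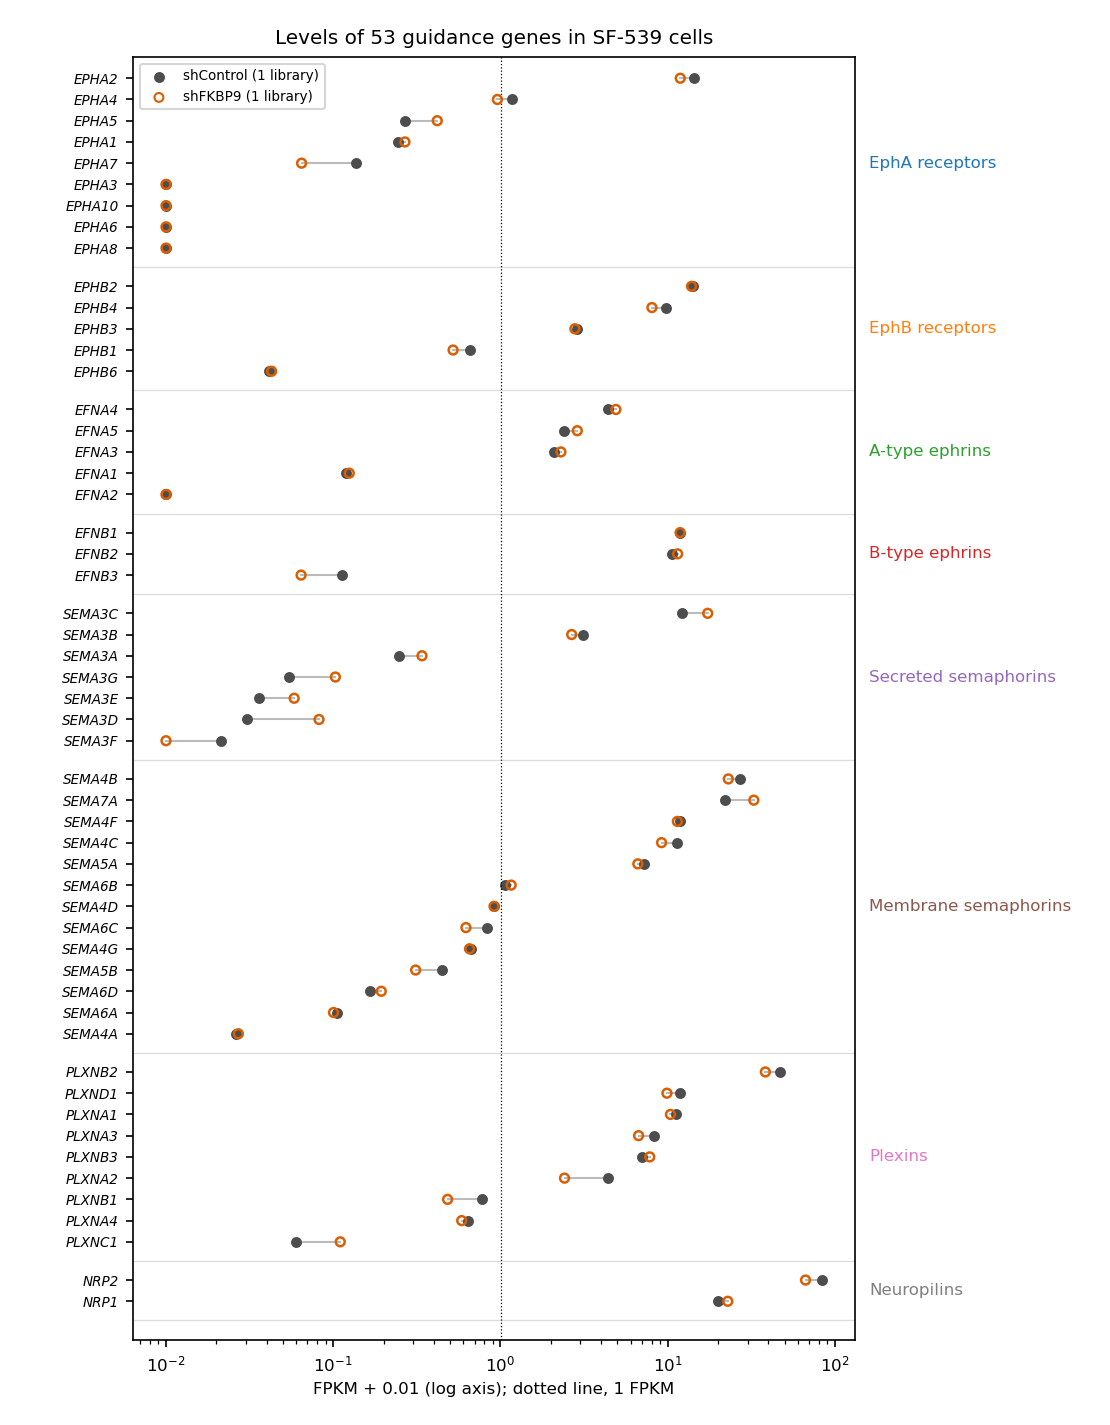
FPKM with 0.01 added (log axis) of the 53 guidance genes, arranged by class, in the shControl library (filled points) and the shFKBP9 library (open points). NRP2 lies furthest to the right in both libraries, and 5 genes without a fragment in either library sit at the left edge.

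No guidance gene was more than 2-fold higher or lower in shFKBP9, computed as the log2 ratio of FPKM with 0.1 added to both values. The same rule was passed upwards by 0.213% and downwards by 0.193% of the 10346 protein-coding genes that reached 1 FPKM in either library. Smaller differences were read against counting error, using the exact Clopper-Pearson interval of the ratio of fragments. The interval lay above 0 for 5 guidance genes, where 19.7% of the protein-coding genes were called higher, so that the 5 of 26 (19.2%) were close to the background. It lay below 0 for 11 guidance genes (42.3%), against a background of 24.0% called lower. It included 0 for the remaining 10. With 99% intervals 3 guidance genes were higher and 9 lower, against 14.4% and 17.5% of the protein-coding genes, and EFNA5, PLXNB3, PLXNA1 and SEMA5A were no longer called. The guidance genes had a median of 2124 fragments in both libraries together, against 1386 over all the protein-coding genes, and more fragments narrow the interval. Their median log2 ratio was -0.08, against -0.02 over the protein-coding genes. Without a minimum of expression, over all guidance genes with a fragment in either library, it was -0.04. For scale, the middle 95% of the protein-coding genes had log2 ratios between -0.45 and 0.43. SEMA7A and SEMA3C lay above this range, PLXNA2 lay below it, and the other 23 guidance genes lay within it.

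**Figure D2:**
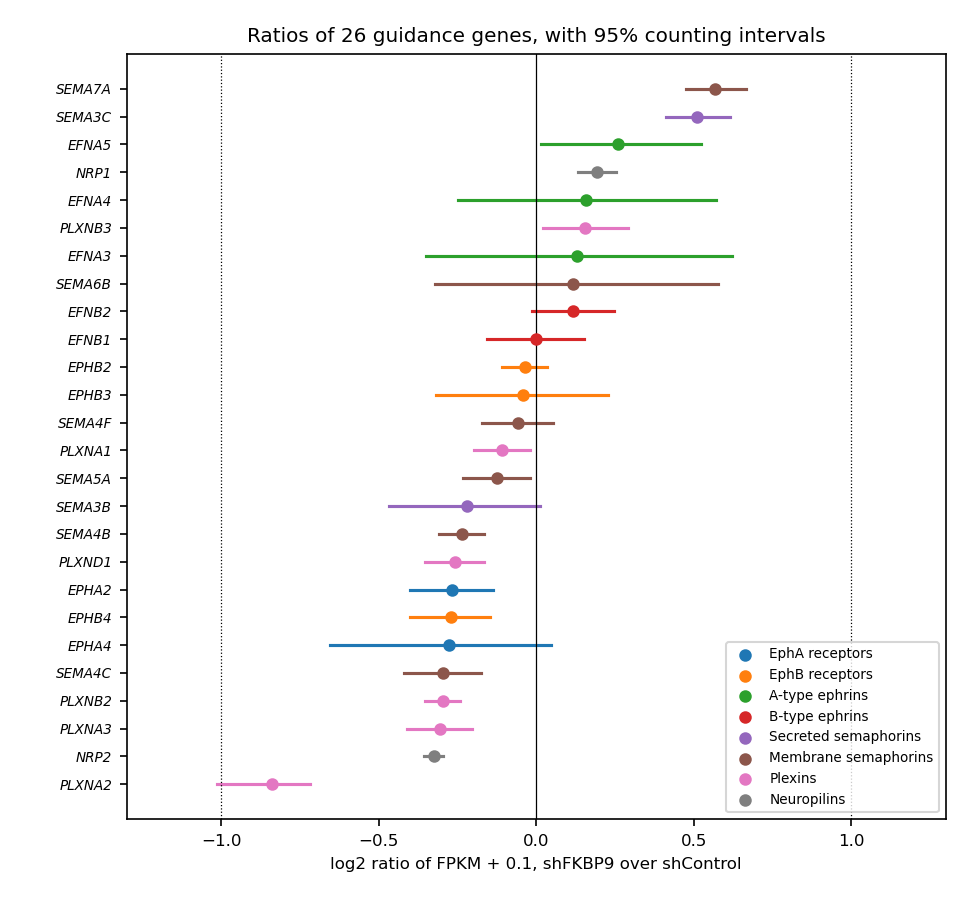
Log2 ratio of FPKM with 0.1 added, shFKBP9 over shControl, of the 26 guidance genes that reached 1 FPKM in either library (points, coloured by class), with the 95% counting interval of the fragment ratio (lines). PLXNA2 stands apart at -0.84 and SEMA7A and SEMA3C at 0.57 and 0.51, and no point passes the dotted lines at 2-fold.

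The genes for receptors and for ligands differed in their counts. Of the 25 genes for Eph receptors, plexins and neuropilins, 13 reached 1 FPKM, of which 8 were lower in shFKBP9 outside counting error, 2 were higher and 3 had intervals that included 0. Of the 28 genes for ephrins and semaphorins, 13 reached 1 FPKM, of which 3 were lower, 3 were higher and 7 had intervals that included 0. Against the background of 24.0% lower and 19.7% higher, the receptor genes stood at 61.5% and 15.4%, and the ligand genes at 23.1% in both directions, close to the background. The median log2 ratio was -0.27 for the receptor genes and 0.12 for the ligand genes. By class it was -0.27 for Eph receptors, -0.28 for plexins, -0.07 for neuropilins, 0.13 for ephrins and -0.09 for semaphorins. The 2 ligand classes were thus unlike. Of the 5 ephrins that reached 1 FPKM 0% were lower and 20% higher, and of the 8 semaphorins 37.5% and 25%. The split into receptors and ligands was not planned beforehand and was not run under the alternatives. The receptor genes had a median length of 9738 bases and a median of 3099 fragments, and the ligand genes 5703 bases and 1947 fragments. With all protein-coding genes in 5 groups by length, the share called lower was 24.1% in the group that holds a length of 5703 bases and 28.2% in the longest group, which holds 9738 bases. The median log2 ratio was -0.02 and -0.01 in these groups. The part of length and depth in the difference between receptors and ligands was not tested.

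Among the ligands of Eph receptors, the B-type ephrins were the more abundant. EFNB1 had 11.9 FPKM in shControl against 11.8 FPKM in shFKBP9, with 712 and 674 fragments, and a log2 ratio of -0.00 (-0.16 to 0.15). EFNB2, the ligand of EPHB4 in arteries and veins, had 10.6 and 11.5 FPKM and a log2 ratio of 0.12 (-0.01 to 0.25). Neither gene differed beyond counting error at this depth. EFNB3 had 6 fragments in shControl against 3 in shFKBP9.

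Of the A-type ephrins, EFNA4 had 4.37 FPKM in shControl against 4.89 FPKM in shFKBP9, EFNA3 2.08 and 2.29 FPKM, and EFNA5 2.38 and 2.87 FPKM. All 3 were higher in shFKBP9 by value, but only for EFNA5, at a log2 ratio of 0.26 (0.02 to 0.52), did the interval lie above 0. This call was lost with TPM and with a 99% interval. EFNA4, with 100 and 106 fragments, and EFNA3, with 72 and 75, were measured on too few fragments to show a difference of this size. A gene of the same strand, AL691442.1, overlaps both EFNA3 and EFNA4 in the annotation of the table and had 0 fragments in both libraries. EFNA1, the ligand of EPHA2 best known in tumours, had 5 fragments in each library, and EFNA2 had none, which with its short gene model, at a limit of 3 fragments, allows up to 0.175 FPKM in shControl against 0.184 FPKM in shFKBP9 (exact 95% Poisson upper bounds 0.215 and 0.226 FPKM).

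Among the Eph receptors, EPHB2 and EPHA2 had the highest levels. EPHB2 had 14.2 FPKM in shControl against 13.9 FPKM in shFKBP9, from 3225 and 2981 fragments, and with a log2 ratio of -0.04 (-0.11 to 0.04) no difference was detectable. EPHA2, a receptor that is often abundant in GBM, had 14.3 FPKM in shControl against 11.9 FPKM in shFKBP9 and so 83.0% of its control level, with a log2 ratio of -0.27 (-0.40 to -0.14). EPHB4, the receptor of EFNB2, had 9.72 and 8.04 FPKM, with a ratio of the same size, -0.27 (-0.40 to -0.15). The gene overlaps SLC12A9 on the opposite strand, which was also lower by fragments, 995 in shControl and 785 in shFKBP9. EPHB3 had 2.86 and 2.78 FPKM, and EPHA4 had 1.17 and 0.948 FPKM at a log2 ratio of -0.28 (-0.65 to 0.05). All 5 Eph receptors with at least 1 FPKM had log2 ratios below 0, where the median of all protein-coding genes was -0.02, and 2 of the 5 lay outside counting error, beside a background of 24.0% called lower. Their median log2 ratio was -0.27 and became -0.16 when 1 was added to FPKM, when no minimum was set or when both libraries had to reach it.

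The remaining 9 Eph receptors stayed under 1 FPKM. EPHA3, EPHA6, EPHA8 and EPHA10 had 0 fragments in both libraries, which at a limit of 3 fragments allows up to 0.0309 FPKM in shControl against 0.0326 FPKM in shFKBP9 for the shortest of them, EPHA8. EPHB1 had 82 and 61 fragments, EPHA1 20 and 21, EPHA7 17 and 7, and EPHB6, a receptor without kinase activity, 3 and 3. EPHA5 had 46 fragments in shControl against 69 in shFKBP9, at 0.258 and 0.409 FPKM, with a log2 ratio of 0.51 and an interval of 0.10 to 1.23. It was the only Eph receptor with an interval above 0.

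The semaphorins held the highest ratios. SEMA7A, a semaphorin held at the membrane by a lipid anchor, had 22.0 FPKM in shControl from 1515 fragments and 32.7 FPKM in shFKBP9 from 2134 fragments. Its level in shFKBP9 was 149% of that in shControl, with a log2 ratio of 0.57 (0.48 to 0.67), and it ranked 128 from the top of the 10346 protein-coding genes. SEMA3C, a secreted semaphorin that binds neuropilins, had 12.1 FPKM from 1377 fragments and 17.3 FPKM from 1865 fragments. Its level was 143% of that in shControl, with a log2 ratio of 0.51 (0.41 to 0.62), and it ranked 172.

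SEMA7A, SEMA3C and PLXNA2, the 3 guidance genes above 1 FPKM with the largest ratios, were also viewed by promoter, since the study asked about the unfolded protein response, whose factors bind known motifs. The 250 bases before the start site in RefSeq (GRCh38.p14) are shown here on the strand of the gene. Capitals mark the GC box GGGCGG on either strand, the only one of the motifs searched that these windows held. The window of SEMA7A is chr15:74433959-74434208, that of SEMA3C is chr7:80922390-80922639 and that of PLXNA2 is chr1:208244385-208244634, all on the minus strand.
SEMA7A: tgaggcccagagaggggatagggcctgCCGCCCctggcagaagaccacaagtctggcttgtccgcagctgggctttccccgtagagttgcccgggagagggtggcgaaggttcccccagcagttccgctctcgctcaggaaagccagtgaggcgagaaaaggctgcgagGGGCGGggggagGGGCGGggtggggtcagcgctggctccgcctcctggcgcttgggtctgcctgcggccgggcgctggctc
SEMA3C: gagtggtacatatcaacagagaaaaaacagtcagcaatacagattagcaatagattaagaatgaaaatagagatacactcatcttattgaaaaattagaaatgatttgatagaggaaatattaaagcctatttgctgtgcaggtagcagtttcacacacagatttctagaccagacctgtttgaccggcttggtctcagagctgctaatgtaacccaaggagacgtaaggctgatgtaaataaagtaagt
PLXNA2: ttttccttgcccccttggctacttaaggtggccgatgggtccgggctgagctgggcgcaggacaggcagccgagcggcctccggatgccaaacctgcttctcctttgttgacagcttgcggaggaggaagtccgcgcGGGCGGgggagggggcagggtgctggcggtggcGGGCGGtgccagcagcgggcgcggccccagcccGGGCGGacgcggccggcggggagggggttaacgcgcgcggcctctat

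The windows of SEMA7A and PLXNA2 each held 3 GC boxes and were rich in G and C, at 70.0% and 72.4%. That of SEMA3C held none, at 36.4% G and C and 2 CpG dinucleotides, the lowest of the guidance genes on both counts. So SEMA7A and SEMA3C, similar in ratio, were unlike in these windows.

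Together the 20 semaphorins summed to 99.3 FPKM in shControl against 107 FPKM in shFKBP9. Without SEMA3C and SEMA7A, which were singled out after their values were seen, the other 18 summed to 65.1 and 57.3 FPKM. Leaving out the 2 genes with the highest ratios of the 8 that reached 1 FPKM lowers the remaining ratio by construction. Of the 6 among the 18 that reached 1 FPKM, 3 were lower outside counting error, SEMA4B, SEMA4C and SEMA5A, beside a background of 24.0%.

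Of the membrane-bound semaphorins of class 4, SEMA4B had 27.1 FPKM in shControl against 23.0 FPKM in shFKBP9, a log2 ratio of -0.24 (-0.31 to -0.16). SEMA4C, a ligand of PLXNB2, had 11.3 and 9.18 FPKM, a log2 ratio of -0.30 (-0.42 to -0.18). SEMA4F had 11.9 and 11.4 FPKM, a log2 ratio of -0.06 (-0.17 to 0.05). SEMA4B and SEMA4C were therefore lower outside counting error, and for SEMA4F no difference was detectable. SEMA4D, the ligand of PLXNB1, had 0.909 and 0.905 FPKM, SEMA4G 0.652 and 0.643 FPKM, and SEMA4A 2 fragments in each library.

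SEMA5A, a transmembrane semaphorin with thrombospondin repeats, had 7.22 FPKM in shControl against 6.62 FPKM in shFKBP9, a log2 ratio of -0.12 (-0.23 to -0.02). SEMA5B had 67 and 44 fragments. In class 6, whose members bind A-type plexins directly, SEMA6B had 1.05 and 1.15 FPKM with an interval of -0.32 to 0.58, SEMA6C had 0.818 and 0.612 FPKM, SEMA6D 24 and 27 fragments, and SEMA6A 19 and 17. Besides SEMA3C, 1 other secreted semaphorin reached 1 FPKM. This was SEMA3B, described as a tumour suppressor in other tissues, with 3.11 and 2.66 FPKM and a log2 ratio of -0.22 (-0.47 to 0.01). The others were SEMA3A with 40 fragments in shControl against 53 in shFKBP9, SEMA3D with 3 and 10, SEMA3E with 4 and 7, SEMA3F with 1 and 0, and SEMA3G with 4 and 8.

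Plexins, the receptors of semaphorins, were the class with the most genes outside counting error in 1 direction. Of the 6 plexins with at least 1 FPKM, 5 were lower in shFKBP9 outside counting error and 1 was higher, where the background was 24.0% lower and 19.7% higher. Their median log2 ratio was -0.28, and -0.26 without PLXNA2. They were also long and well covered, with a median of 10341 bases and 3419 fragments.

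PLXNA2 had the lowest ratio of all guidance genes with at least 1 FPKM. It had 4.38 FPKM in shControl from 1093 fragments and 2.40 FPKM in shFKBP9 from 569 fragments, so that 54.9% of its control level was left. Its log2 ratio was -0.84 (-1.01 to -0.72), and it ranked 35 from the bottom of the 10346 protein-coding genes. With 1 in place of 0.1 added to FPKM the log2 ratio was -0.66. PLXNA2 is a receptor of class 6 semaphorins and, with neuropilins, of secreted semaphorins.

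The other A-type plexins had ratios nearer to 0. PLXNA3 had 8.28 FPKM in shControl against 6.69 FPKM in shFKBP9, a log2 ratio of -0.30 (-0.41 to -0.20), and overlaps LAGE3 on the opposite strand, which had 1202 and 1132 fragments. PLXNA1 had 11.2 and 10.4 FPKM, a log2 ratio of -0.11 (-0.20 to -0.02). PLXNA4 had 0.627 and 0.576 FPKM, from 186 and 162 fragments.

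PLXNB2 had 6196 fragments in shControl against 4778 in shFKBP9 and a log2 ratio of -0.30 (-0.35 to -0.24), close to that of its ligand SEMA4C. Other receptors and ligands had ratios of opposite sign, as PLXNB3 (0.15) and SEMA5A (-0.12), and NRP2 (-0.32) and SEMA3C (0.51). PLXND1, the receptor that SEMA3E binds without a neuropilin, had 11.8 and 9.88 FPKM, a log2 ratio of -0.26 (-0.35 to -0.17). PLXNB3, a receptor of SEMA5A, was the exception, with 6.999 and 7.80 FPKM and a log2 ratio of 0.15 (0.02 to 0.29). It overlaps an antisense gene, U52111.1, with 44 and 52 fragments, and a protein-coding gene of the same strand, SRPK3, with 13 and 16. PLXNB1 stayed under 1 FPKM, with 0.766 FPKM in shControl from 135 fragments and 0.473 FPKM in shFKBP9 from 79, a log2 ratio of -0.60 with an interval of -1.12 to -0.29. PLXNC1, the plexin that binds SEMA7A, had 9 fragments in shControl against 17 in shFKBP9, so that the semaphorin with the highest ratio was measured beside a cognate plexin at 0.0503 and 0.10 FPKM.

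The neuropilins, co-receptors that also bind vascular endothelial growth factors, went in opposite directions. NRP2 had 21019 fragments in shControl against 15909 in shFKBP9, and its level in shFKBP9 was 79.8% of that in shControl, a log2 ratio of -0.32 (-0.35 to -0.30). NRP1 had 20.0 FPKM in shControl against 22.9 FPKM in shFKBP9, from 4172 and 4521 fragments, a log2 ratio of 0.19 (0.13 to 0.25). The level of NRP2 was 4.18 times that of NRP1 in shControl and 2.92 times in shFKBP9. Against SEMA3C, their shared secreted ligand, NRP2 was 6.89 times as abundant in shControl and 3.85 times in shFKBP9.

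**Figure D3:**
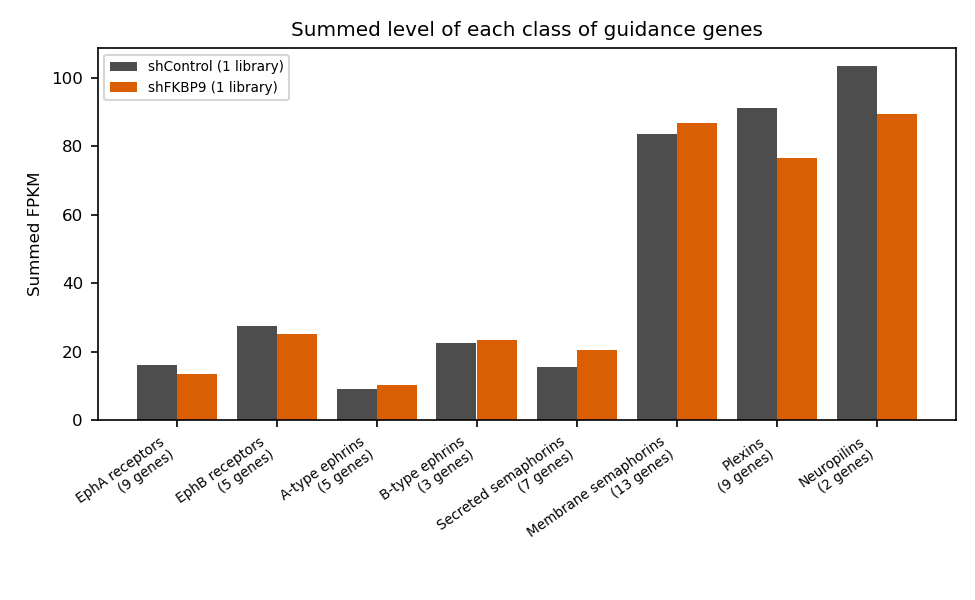
Summed FPKM of each class of guidance genes (number of genes below each name) in the shControl and the shFKBP9 library, 1 library each. The sums of plexins (91.3 and 76.6 FPKM) and neuropilins (104 and 89.5 FPKM) were lower in shFKBP9, and that of secreted semaphorins (15.6 and 20.5 FPKM) was higher. The higher sum of secreted semaphorins rested on SEMA3C (12.1 and 17.3 FPKM), while SEMA3B had 3.11 and 2.66 FPKM.

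Summed over classes, the plexins had 91.3 FPKM in shControl against 76.6 FPKM in shFKBP9, and the neuropilins 104 and 89.5 FPKM. EphA receptors summed to 16.1 and 13.5 FPKM and EphB receptors to 27.5 and 25.2 FPKM. A-type ephrins summed to 8.95 and 10.2 FPKM and B-type ephrins to 22.5 and 23.4 FPKM. Most of the summed level of plexins and neuropilins rested on PLXNB2 and NRP2. In the plot of all protein-coding genes, the guidance genes lay mostly inside the cloud at their level of expression.

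**Figure D4:**
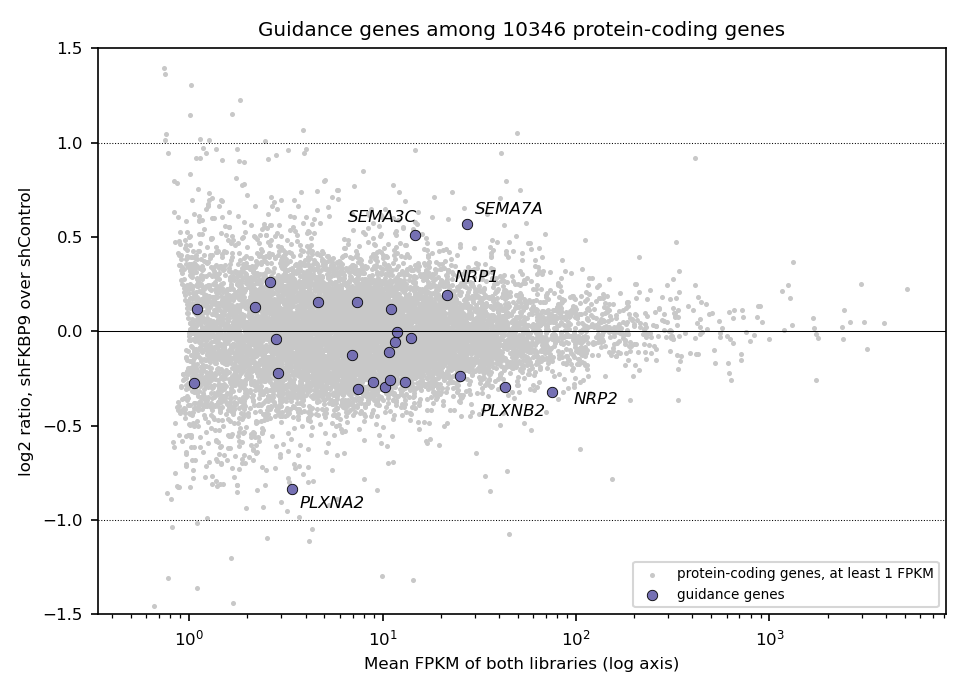
Log2 ratio of FPKM with 0.1 added against mean FPKM (log axis) for 10346 protein-coding genes (grey) and the 26 guidance genes with at least 1 FPKM (violet), 16 genes beyond 1.5 on the vertical axis not being drawn. SEMA7A and SEMA3C lie at the upper edge of the cloud and PLXNA2 at the lower edge.

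Promoter windows of this kind were found for 47 of the 53 guidance genes and not for EFNB3, EPHA10, NRP1, SEMA3A, SEMA6A and SEMA6B. The endoplasmic reticulum stress element, CCAAT and CCACG with 9 bases between them, was found in 0 of the 47 and in 0.0806% of all 27305 windows. The core of the unfolded protein response element, TGACGTG, was found in 0 and in 1.71% of all windows, and the ATF4 motif TGATGCAA in 0 and in 0.820%. AP-1 sites, TGANTCA, were found in 1 window, that of PLXNC1, and in 6.60% of all windows. Both strands were searched. A window without these letters says nothing of the factors elsewhere. The CCAAT box, whose 5 letters also open the stress element, was found in 34.0% of the 47 windows and 33.0% of all. The GC box was found in 78.7% of the 47 windows, against 42.3% of all windows. The 47 windows were also richer in G and C, with a median of 66.4% against 58% over all windows. The part of this difference in the share with a GC box was not tested. Among guidance genes it was found in 22 of 24 with at least 1 FPKM and in 15 of 23 under 1 FPKM. The median share of G and C was 78.0% over the 11 genes lower in shFKBP9, from 63.2% to 88.8%, and 67.2% over the 4 higher genes with a window, from 36.4% to 79.6%, so that the groups overlapped.

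Several guidance genes lie close together on the genome (hg38). On chromosome 7, SEMA3C, SEMA3E, SEMA3A and SEMA3D follow each other between 80742538 and 85186855. SEMA3C alone of these was above 1 FPKM, and the other 3 had at most 0.329 FPKM. On chromosome 1, EFNA4, EFNA3 and EFNA1 lie within 155063731 to 155134857 with gaps of 9.32 kb and 39.9 kb. EFNA4 and EFNA3 were above 1 FPKM and EFNA1 was not above 0.115 FPKM. EPHA8, without a fragment, lies 107 kb from EPHB2 on the same chromosome. On chromosome 3, SEMA3F, with 1 fragment in all, lies 78.5 kb from SEMA3B. On the X chromosome PLXNB3 and PLXNA3 lie 679 kb apart, with log2 ratios of 0.15 and -0.30. Some neighbours thus differed in level, and this pair differed in direction. Others were alike. EFNA4 and EFNA3 had log2 ratios of 0.16 and 0.13, with intervals that included 0. PLXNA1 and PLXND1, 2518 kb apart on chromosome 3, were both lower, at -0.11 and -0.26.

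Other guidance genes and the proteins through which plexins and Eph receptors act were taken from a list of 59 genes, written from general knowledge. Of these, 33 reached 1 FPKM and none was past 2-fold. The interval lay above 0 for 9 (27.3%) and below 0 for 10 (30.3%), beside the background of 19.7% and 24.0%. The median log2 ratio of the 33 was -0.02, the same as over all protein-coding genes.

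The highest ratio among these 33 genes was that of RND3, a small GTP-binding protein that acts on the actin cytoskeleton, with 17.2 FPKM in shControl against 28.7 FPKM in shFKBP9, a log2 ratio of 0.74 (0.63 to 0.85). NTNG1, a netrin with a lipid anchor, had 7.76 and 11.95 FPKM, a log2 ratio of 0.62 (0.52 to 0.73). NCK1, an adaptor that binds Eph receptors among others, followed at 0.36 (0.13 to 0.61). UNC5B, a netrin receptor, was at 0.33 (0.15 to 0.51) and RRAS, a GTPase on which plexins act, at 0.19 (0.09 to 0.28).

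The lowest ratios among the 33 included those of the 3 MICAL genes, whose enzymes oxidise actin downstream of plexins. MICAL1 had 6.96 FPKM in shControl against 5.33 FPKM in shFKBP9, a log2 ratio of -0.38 (-0.53 to -0.24). MICAL3 was at -0.28 (-0.39 to -0.19) and MICAL2 at -0.20 (-0.25 to -0.16). DPYSL3, a collapsin response mediator, had 25.1 and 20.9 FPKM, a log2 ratio of -0.27 (-0.34 to -0.19). VAV3, an exchange factor used by Eph receptors, was at -0.21 (-0.41 to -0.03).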

How the data were processed

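RNA of SF-539 cells, 1 shControl and 1 shFKBP9 library, was analysed from 1 table. Per the methods, the authors removed reads with adapters, undetermined bases or low quality, aligned paired-end reads to hg38 with Hisat2 2.0.5 and counted them with featureCounts 1.5.0-p3. The authors deposited FPKM, fragments scaled by gene length and library size. All values above 0 (100%) multiplied by gene length were whole multiples of 1 step, within 0.01 fragments, which gave the fragments per gene. The library sizes behind the FPKM were 0.999 and 1.00 times the fragments on genes. The strand setting of the counting is not given in the sources used here.

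From the FPKM, log2 ratios were computed with 0.1 added. Genes needed 1 FPKM in either library. The 95% intervals of ratios (Clopper-Pearson) and of levels (Poisson) cover counting error only; a count of 0 was bounded at 3 fragments. Members, lists and rules were chosen with earlier results of these data known. All members are named; of the wider list, the 5 largest ratios in each direction outside counting error are named, among genes that reached 1 FPKM. Alternatives were 1 or 0.01 added to FPKM, median scaling, TPM, other minimums and 99% intervals. The recovery of fragments, ratios and intervals were tested on simulated data. Scripts ran in Python 3.11.15 with scipy 1.17.1 (intervals), pandas 2.3.3 and numpy 2.4.6 (tables) and matplotlib 3.10.9 (figures).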

Additional observations from a re-analysis of the deposited data

How the results depend on the processing

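No guidance gene passed 2-fold in either direction under any of the 6 alternatives run for that count. With 99% in place of 95% intervals, 3 guidance genes were higher and 9 lower in shFKBP9 in place of 5 and 11, where the shares of all protein-coding genes were 14.4% and 17.5%, EFNA5, PLXNA1, PLXNB3 and SEMA5A being lost. With median scaling EFNB2 was added to the genes outside counting error, and with TPM EFNA5 was lost and SEMA3B added. The log2 ratio of FKBP9 was -3.16 and that of PLXNA2 -0.66 with 1 added to FPKM. Without a minimum, 1 gene of the wider list, NTN3, with 11 and 2 fragments, was more than 2-fold lower. The median log2 ratio of the Eph receptors, -0.27, was -0.29 with TPM and -0.16 with 1 added, with no minimum and with the minimum in both libraries, and that of all members, -0.08, ranged from -0.10 with TPM to -0.04 with no minimum. No called ratio changed its sign under another scaling or added value. No paired analysis was possible because there was 1 library per group, and leaving out a library leaves no comparison. Genes with few fragments, such as EFNA3, could show only larger differences than those seen.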

Other observations

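Antisense and other non-coding genes named after guidance genes, which the rule leaves out, had few fragments. SEMA3F-AS1 had 18 fragments in shControl and 18 in shFKBP9, EPHA5-AS1 10 and 6, SEMA6A-AS1 9 and 5, SEMA3B-AS1 5 and 2, EPHA1-AS1 0 and 2 and SEMA5A-AS1 1 and 1. SEMA6A-AS2 had none. SEMA3F-AS1 thus had more fragments than SEMA3F itself, which had 1 and 0, and the strand setting of the counting is not known.

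VEGFA, the growth factor that binds neuropilins, was more abundant than either neuropilin, with 91.9 FPKM in shControl and 101 FPKM in shFKBP9, from 24004 and 24947 fragments. KDR, its receptor on endothelial cells, had 2.83 and 2.45 FPKM, although the endothelial markers PECAM1, CDH5 and VWF were each under 0.1 FPKM. VEGFA and KDR were chosen here after their values were seen.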
